A study of Mus musculus with 16 samples.

Results

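The genes described here are 34 genes of the endoplasmic reticulum (ER) that fold, sort and dispose of newly made secretory proteins, or that signal when such proteins pile up. They were taken by exact gene symbol from a list of ER chaperones and unfolded protein response genes. These genes and the further lists below were chosen with earlier results of these data known. Their counts beside the shares over all genes are therefore a description and not an independent test. All 34 were found among the 25803 genes of the deposited tables, and all 34 passed the filter on low counts, with 14488 genes tested in all. By role they comprise 9 chaperones and co-chaperones, 8 lectin chaperones and disulfide or prolyl folding enzymes, 3 stress sensors or transcription factors, 8 genes of ER-associated degradation and 6 genes of translocation and signal peptide cleavage.

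Polyadenylated RNA was sequenced from livers of male mice after 12 weeks of high-fat feeding. Control mice, called WT in the series' design text, and mice with a liver knockout of Cpt1a (LKO) were examined after a 16 h fast, or after that fast and 6 h of refeeding. Each of the 4 groups (fasted control, fasted LKO, refed control and refed LKO) held 4 libraries, so diet, sex and the fast are shared by all groups. The promoter or Cre line behind the knockout, the age of the mice and any pooling are not given in the sources used here.

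The ER is where secretory and membrane proteins enter the secretory pathway, through the Sec61 channel, and where they are glycosylated, oxidised and folded. When unfolded proteins accumulate, the sensors IRE1α (Ern1), ATF6 and PERK switch on the unfolded protein response, and the transcription factors ATF6 and XBP1 raise the transcription of chaperones and degradation factors. In the liver, which exports most plasma proteins and the apolipoprotein B particles, these genes are also known to follow feeding.

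Cpt1a, the mitochondrial carnitine palmitoyltransferase targeted by the knockout, was checked first. It stood at 377 to 555 CPM (counts per M, or mega, counts of a library) in fasted control, 86.0 to 125.5 in fasted LKO, 319 to 619 in refed control and 39.8 to 75.2 in refed LKO. The groups of each state did not overlap. Libraries held 14721601 to 24618230 counts. The labels name no library or sequencing batch, so no value within a batch could be given. They also do not say whether the libraries of a group came from separate animals, so p-values measure the spread between these libraries. In whole-liver RNA, fewer cells of a type and less RNA per cell cannot be told apart.

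Because ATF6 and XBP1 act through known DNA elements, the promoters of the genes are shown before their values. The RefSeq promoter table (build GRCm38.p6, 250 bases before to 50 after each gene start) matched 27 of the 34 genes. Atf6, Derl1, Hyou1, Manf, Sec11c, Sec61a1 and Spcs3 had no entry. On both strands, 3 elements were searched with no mismatch: the ER stress response element (ERSE), which is CCAAT and CCACG with 9 bases between them; ERSE-II, which is ATTGG and CCACG with 1 base between them; and the unfolded protein response element, TGACGTGG. The ERSE occurred in 10 of the 27 promoters (37.0%), against 37 of 27025 genes in the table (0.137%). ERSE-II occurred in 2 of 27 (7.41%) against 12 of 27025 (0.0444%), and TGACGTGG in 0 of 27 against 0.714% of all genes. The genes were listed as ER stress genes, so a high share is a property of the list. A match describes letters in this window and does not show that a factor binds there.

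The matches are printed 5′ to 3′ on the strand that reads as the motif, with its fixed letters in capitals. They are shown because 12 of the genes carry 1 of these elements, the ERSE in 10 and ERSE-II in 2. The Dnajb11 match lies after the gene start. Hsp90b1 carries a pair.
Hspa5 (ERSE, chr2:34772025-34772043, plus strand): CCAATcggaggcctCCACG
Hsp90b1 (ERSE, chr10:86705638-86705656, minus strand): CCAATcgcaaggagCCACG
Hsp90b1 (ERSE, chr10:86705533-86705551, plus strand): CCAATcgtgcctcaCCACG
Dnajc3 (ERSE, chr14:118937827-118937845, plus strand): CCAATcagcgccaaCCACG
Creld2 (ERSE, chr15:88819520-88819538, minus strand): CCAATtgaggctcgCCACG
Calr (ERSE, chr8:84847075-84847093, plus strand): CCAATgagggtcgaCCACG
Canx (ERSE, chr11:50325800-50325818, minus strand): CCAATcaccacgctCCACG
Pdia6 (ERSE, chr12:17266491-17266509, plus strand): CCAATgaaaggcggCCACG
Ero1b (ERSE, chr13:12565682-12565700, minus strand): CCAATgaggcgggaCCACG
Syvn1 (ERSE, chr19:6046532-6046550, plus strand): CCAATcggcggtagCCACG
Derl3 (ERSE, chr10:75893242-75893260, minus strand): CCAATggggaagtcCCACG
Dnajb11 (ERSE-II, chr16:22857852-22857862, plus strand): ATTGGcCCACG
Herpud1 (ERSE-II, chr8:94386377-94386387, plus strand): ATTGGgCCACG

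The 250 bases before the gene start are printed for 5 of these genes and for Sdf2l1, a strongly changed gene without a match, each 5′ to 3′ on the gene's strand. Hspa5 and Hsp90b1 are the main chaperones, Creld2 and Derl3 are among the most changed genes, and Herpud1 carries the shorter element. Capitals mark the fixed letters of the element, which read as CGTGG and ATTGG where the element lies on the other strand.
Hspa5 (chr2:34771840-34772089, plus strand): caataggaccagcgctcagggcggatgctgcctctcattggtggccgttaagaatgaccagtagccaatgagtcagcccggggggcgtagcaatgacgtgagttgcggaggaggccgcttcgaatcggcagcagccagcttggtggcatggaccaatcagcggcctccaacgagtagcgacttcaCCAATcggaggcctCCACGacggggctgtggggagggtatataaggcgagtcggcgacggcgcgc
Hsp90b1 (chr10:86705445-86705694, minus strand): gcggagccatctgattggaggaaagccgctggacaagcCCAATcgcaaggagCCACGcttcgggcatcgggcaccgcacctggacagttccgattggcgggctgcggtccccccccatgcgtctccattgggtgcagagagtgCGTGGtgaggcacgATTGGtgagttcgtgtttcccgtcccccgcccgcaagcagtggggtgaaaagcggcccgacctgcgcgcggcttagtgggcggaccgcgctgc
Creld2 (chr15:88819396-88819645, plus strand): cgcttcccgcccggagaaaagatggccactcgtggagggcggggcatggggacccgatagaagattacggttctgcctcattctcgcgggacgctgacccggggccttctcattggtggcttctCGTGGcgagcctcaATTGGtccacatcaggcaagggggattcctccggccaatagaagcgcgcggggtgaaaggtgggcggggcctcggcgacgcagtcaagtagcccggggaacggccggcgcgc
Derl3 (chr10:75893148-75893397, plus strand): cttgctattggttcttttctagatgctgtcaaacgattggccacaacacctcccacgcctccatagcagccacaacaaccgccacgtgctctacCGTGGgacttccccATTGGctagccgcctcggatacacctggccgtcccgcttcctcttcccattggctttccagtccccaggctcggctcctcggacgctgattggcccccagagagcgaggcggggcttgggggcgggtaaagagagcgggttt
Herpud1 (chr8:94386179-94386428, plus strand): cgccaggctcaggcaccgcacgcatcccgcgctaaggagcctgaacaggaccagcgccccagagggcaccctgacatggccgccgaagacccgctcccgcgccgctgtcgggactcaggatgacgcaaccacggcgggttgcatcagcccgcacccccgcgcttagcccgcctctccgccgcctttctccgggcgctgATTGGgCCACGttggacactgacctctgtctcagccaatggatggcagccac
Sdf2l1 (chr16:17132384-17132633, minus strand): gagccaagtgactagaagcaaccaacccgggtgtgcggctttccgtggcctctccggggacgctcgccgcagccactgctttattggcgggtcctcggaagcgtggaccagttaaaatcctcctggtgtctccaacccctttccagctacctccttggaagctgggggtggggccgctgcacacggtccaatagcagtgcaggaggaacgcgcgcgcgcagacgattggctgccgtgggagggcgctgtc

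The genes spanned a wide range of levels. Per kilobase of the gene length given by the authors, mean levels in fasted control ran from 3.39 CPM for Sec11c, a catalytic subunit of signal peptidase, to 435 CPM for P4hb, the protein disulfide isomerase that is also a subunit of the triglyceride transfer protein of lipoprotein assembly. Herpud1 (294), Calr (251), Hspa5 (155) and Pdia3 (107 CPM per kilobase) followed P4hb, and Ern1 (3.47), Derl3 (3.63) and Atf6 (4.49) stood near Sec11c. The sensor genes Ern1 and Atf6 were thus among the scarcest of the 34 mRNAs.

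The groups fell in one order for most of the genes. For 22 of 34 the group means rose from fasted LKO through fasted control and refed LKO to refed control. Fasted LKO had the lowest mean for 30 genes and refed control the highest for 30, with both true of 27. The order of the group means was not counted over all genes, so these counts have no background beside them. Averaged over the 34 genes and expressed against the mean log2 CPM of fasted control, the libraries stood at −0.63 ± 0.16 in fasted LKO, 0.18 ± 0.08 in refed LKO and 0.58 ± 0.16 in refed control (SD, n = 4). Single libraries also moved the genes together. S42 was the highest of the fasted control libraries for 26 of 34 genes and S40 the lowest for 25. S47 was the highest of fasted LKO for 18, and S49 the lowest of refed control for 19.

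**Figure D1:**
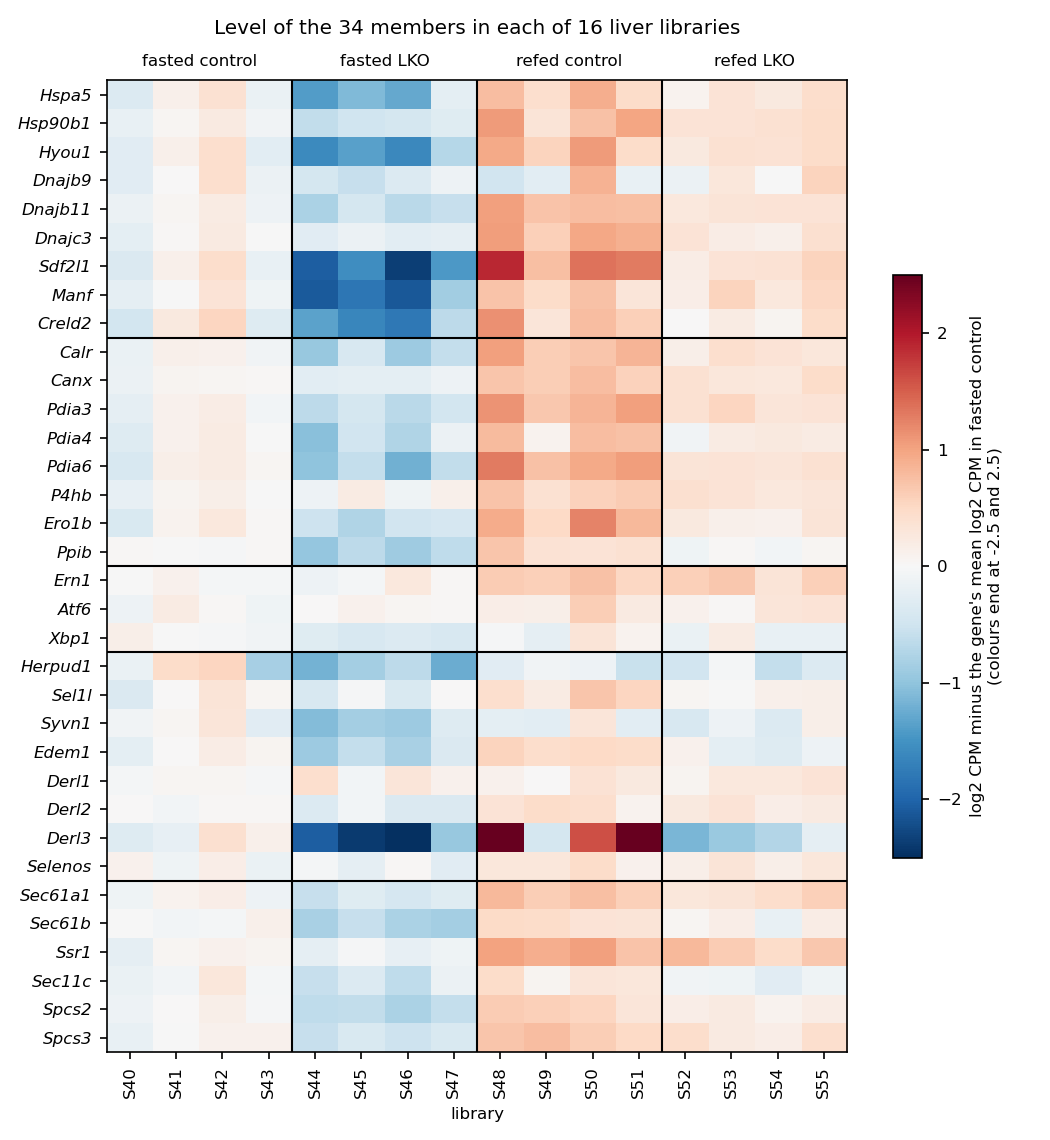
Level of the 34 genes (rows, grouped by role) in the 16 libraries (columns), as log2 CPM minus the gene's mean log2 CPM in fasted control; blue is below and red above that mean. Fasted LKO libraries are blue for most rows and refed control libraries red, while Ern1, Atf6 and Derl1 stay pale in the fasted state.

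After the fast, 24 of the 34 genes were lower in LKO than in control and 0 were higher (quasi-likelihood test of edgeR, p-values adjusted over all genes tested by Benjamini-Hochberg, threshold 0.05). Of all genes tested, 6.48% were called lower and 5.75% higher in this comparison. The median log2 fold change was −0.56 over the 34 genes and 0.02 over all genes. For 20 of the 34 the LKO libraries lay wholly below the control libraries, against 8.59% of all genes, and for 0 wholly above, against 8.27%. The lower genes included 7 of 9 chaperones, 6 of 8 lectin chaperones and folding enzymes, 1 of 3 sensors and transcription factors, 5 of 8 degradation genes and 5 of 6 translocation genes. At an unadjusted p under 0.05 the counts were 26 lower and 0 higher, against 26.7% of all genes in either direction. DESeq2 called 25 lower, against 14.8% of all genes in either direction. With limma-voom 23 were lower, against 12.5% in either direction, and 0 were called higher by these tools. Leaving out 1 library at a time left 17 to 22 genes called, where 7.14% to 13.5% of all genes were called in either direction.

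In the refed state 13 of the 34 genes were lower in LKO and 0 were higher, where 1.35% of all genes were called lower and 2.28% higher. The median log2 fold change was −0.36 against −0.01 over all genes. The LKO libraries lay wholly below control for 15 of the 34, against 5.03% of all genes, and wholly above for 0, against 6.68%. The lower genes were 3 chaperones, 6 lectin chaperones and folding enzymes, 2 degradation genes and 2 translocation genes, with 0 of the 3 sensors. At an unadjusted p under 0.05 they were 22 lower and 0 higher, against 18.4% of all genes in either direction. DESeq2 called 16 lower, against 6.38% of all genes in either direction. With limma-voom 13 were lower, against 3.56% in either direction, and 0 were higher by these tools. The edgeR count rested more on single libraries: it was 6 without S48, 7 without S54 or S55, and 8 without S52 or S53. The share of all genes called in either direction fell as well, from 3.63% to 1.33% without S48, 1.99% without S54 and 1.53% without S55. That share was 2.99% without S52 and 2.03% without S53. The 6 genes called in every fit that left out a library were Dnajb11, Dnajc3, Edem1, Derl3, Ppib and Ero1b.

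Hspa5 encodes BiP, the central chaperone of the ER lumen (chromosome 2 from 34661982 to 34667559 in the deposited tables, for which the submitters' processing notes name build mm39). Its levels after the fast were 508, 705, 836 and 571 CPM in control (libraries S40 to S43) and 243, 301, 266 and 540.3 in LKO (S44 to S47). S47 reached into the control range and the other LKO libraries lay below it, so the groups overlapped. The log2 fold change was −0.96 (SE 0.22, edgeR adjusted p = 0.0098). In the refed libraries Hspa5 stood at 1091, 861, 1207 and 889 CPM in control (S48 to S51) and 686, 811, 764 and 871 in LKO (S52 to S55), and the difference of −0.37 did not pass (SE 0.22, edgeR adjusted p = 0.388).

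Manf, an ER-resident protein that binds BiP and is also secreted, stood at 107, 124, 158 and 116 CPM in fasted control and 29.2, 35.8, 28.6 and 68.0 in fasted LKO. The groups did not overlap, and LKO held 32.0% of the control level (log2 fold change −1.64, SE 0.23, edgeR adjusted p = 4.2e-04). After refeeding, Manf was at 204, 170.2, 207 and 154 CPM in control and 139, 183, 149 and 179 in LKO, with overlapping groups and a difference of −0.18 (SE 0.22, edgeR adjusted p = 0.727). Its listed span (chromosome 9 from 106715511 to 106769178) takes in 4 other genes. The most abundant of them, Rbm15b, reached 12.0% of the level of Manf and changed by −0.43 in fasted LKO.

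Hyou1, which exchanges nucleotide on BiP, fell from 172 ± 41.03 to 69.9 ± 22.4 CPM in fasted LKO (SD, n = 4), a log2 change of −1.30 (SE 0.20, edgeR adjusted p = 8.9e-04). The fasted control libraries held 139 to 224 CPM and the fasted LKO libraries 54.9 to 103, without overlap. Refed, it stood at 288 ± 58.7 in control and 216 ± 13.6 in LKO (−0.41, SE 0.20, edgeR adjusted p = 0.281). Hyou1 thus passed the test in the fasted state and not in the refed state.

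Sdf2l1, which works with the co-chaperone DNAJB11 and is strongly stress-inducible, was lower in LKO in both states. It stood at 26.4, 37.0, 45.8 and 29.8 CPM in fasted control and 8.12, 11.6, 6.66 and 12.6 in fasted LKO. Refed, it stood at 126, 57.5, 87.4 and 83.2 CPM in control and 38.7, 43.3, 43.5 and 50.3 in LKO. The genotypes did not overlap in either state, and the log2 fold changes were −1.83 (SE 0.24, edgeR adjusted p = 3.0e-04) and −1.01 (SE 0.22, edgeR adjusted p = 0.0214). The refed call was lost without S48, S52, S53 or S54 (highest edgeR adjusted p = 0.0771).

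Creld2, an ER stress-inducible protein with disulfide isomerase activity, fell by 1.35 on the log2 scale in fasted LKO (SE 0.25, edgeR adjusted p = 0.0032) and differed by −0.54 in the refed state (edgeR adjusted p = 0.248). Dnajb11, a co-chaperone that brings substrates to BiP, fell in both states, by 0.63 (edgeR adjusted p = 9.3e-04) and by 0.50 (edgeR adjusted p = 0.0109). Hsp90b1, the ER form of HSP90, fell from 335 ± 42.1 to 242 ± 22.8 CPM in the fasted state (SD, n = 4; log2 fold change −0.47, edgeR adjusted p = 0.0318). That call was held in 3 of 8 fits that left out 1 library. Dnajc3, a BiP co-chaperone, showed the opposite order of calls: its fasted difference of −0.24 did not pass (edgeR adjusted p = 0.169), and in the refed state it fell by 0.61 (edgeR adjusted p = 0.0052). Dnajb9, the co-chaperone that restrains IRE1α, passed in neither state.

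**Figure D2:**
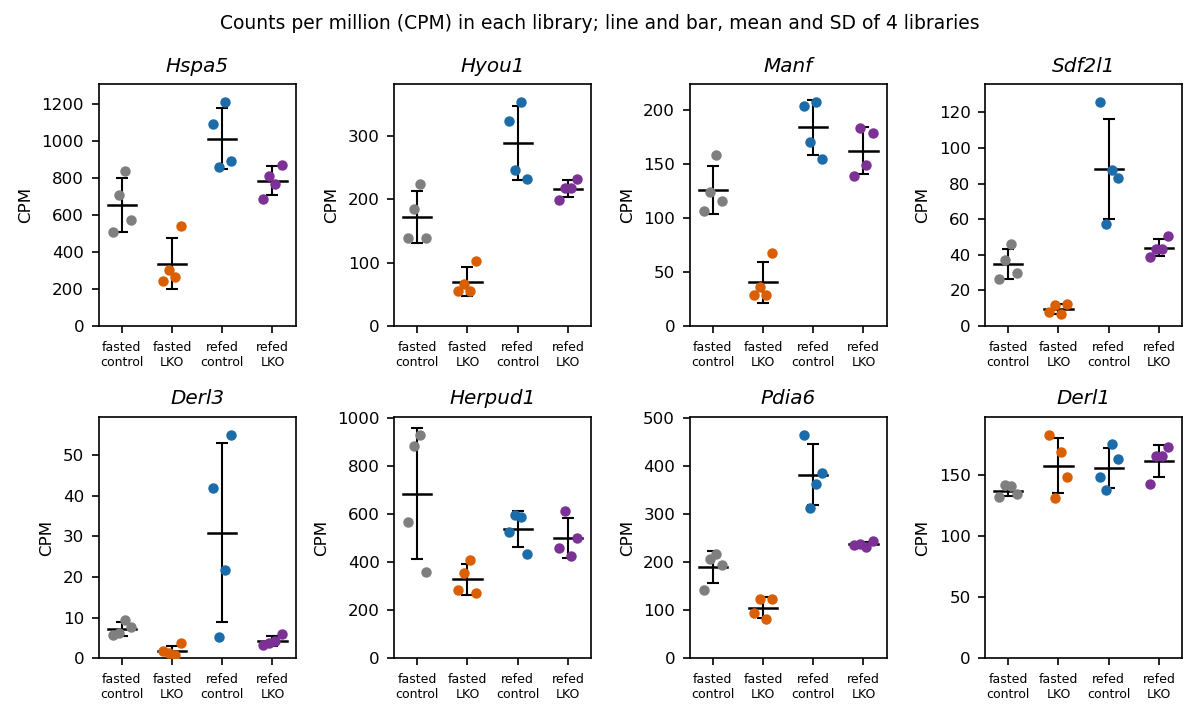
CPM in each library (points) with mean and SD of 4 libraries for 8 of the genes, by group. Fasted LKO has the lowest mean for Hspa5, Hyou1, Manf, Sdf2l1, Derl3, Herpud1 and Pdia6, with S47 the highest fasted LKO point for Hspa5, Hyou1 and Manf, while for Derl1 each pair of groups overlaps except fasted control and refed LKO.

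For the 8 lectin chaperones and folding enzymes the difference between the refed and the fasted LKO effect ran from −0.28 to 0.30, and 0 of 8 passed that test. Ppib alone among them had an unadjusted p under 0.05. Calr, the soluble lectin chaperone of glycoproteins, fell from 722 ± 72.4 to 444 ± 81.5 CPM in fasted LKO (−0.70 on the log2 scale, edgeR adjusted p = 0.0023). In the refed state it fell from 1258 ± 156 to 886 ± 70.1 CPM (SD, n = 4; −0.51, edgeR adjusted p = 0.038), a call held in 1 of 8 fits that left out a library. Pdia3, the disulfide isomerase that partners calreticulin and calnexin, fell by 0.57 and by 0.54 (edgeR adjusted p = 0.0042 and 0.0154). Pdia6, another disulfide isomerase, stood at 142, 207, 218 and 195 CPM in fasted control and 94.2, 124, 81.3 and 123 in fasted LKO, without overlap. Refed, it stood at 466, 313, 364 and 386 CPM in control and 237, 238, 232 and 244 in LKO, the tightest group of libraries for this gene. Its log2 fold changes were −0.85 and −0.68 (edgeR adjusted p = 0.0023 and 0.0223). The refed calls of Pdia3 and Pdia6 were not kept in every fit that left out a library.

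Ppib, the ER cyclophilin that isomerises proline bonds, fell by 0.78 and by 0.48 (edgeR adjusted p = 2.4e-04 and 0.0097). Ero1b, an oxidase that recharges disulfide isomerases, fell by 0.56 and by 0.69 (edgeR adjusted p = 0.0216 and 0.0154). Its fasted call was lost without S41, S42 or S44 (highest edgeR adjusted p = 0.064). Canx, the membrane-bound lectin chaperone, differed by −0.22 in the fasted state (edgeR adjusted p = 0.0696) and fell by 0.31 in the refed state (edgeR adjusted p = 0.0357, held in 1 of 8 fits that left out a library). P4hb, the most abundant of the 34 per kilobase, did not pass in either state: it stood at 1244 ± 125 against 1265 ± 143 CPM fasted and 1857 ± 179 against 1555 ± 61.5 CPM refed (control against LKO, SD, n = 4). The P4hb differences were 0.02 (edgeR adjusted p = 0.91) and −0.26 (edgeR adjusted p = 0.184).

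The sensor genes Ern1 and Atf6 passed in neither state. Ern1 stood at 27.4 to 30.5 CPM in fasted control and 25.9 to 33.99 in fasted LKO, a difference of 0.03 (SE 0.09, edgeR adjusted p = 0.881). Atf6 stood at 37.9 to 47.3 and 41.6 to 44.3 CPM, a difference of 0.04 (SE 0.11, edgeR adjusted p = 0.843). Both genes overlapped between the genotypes in the refed state too, with differences of −0.06 and −0.10. Xbp1 was at 273, 244, 241 and 233 CPM in fasted control and 201, 186, 196 and 188 in fasted LKO. Those Xbp1 groups did not overlap, but its call (−0.36, SE 0.11, edgeR adjusted p = 0.0462) was lost in each of the 8 fits that left out a library (highest edgeR adjusted p = 0.126). Counts per gene do not separate spliced from unspliced Xbp1 mRNA, and activation of the sensors, which is post-translational, is not measured by mRNA level.

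Among the degradation genes, Derl3 had the largest differences of the 34 genes. Derl3, a derlin of the retrotranslocation machinery, stood at 5.65, 6.18, 9.41 and 7.71 CPM in fasted control and 1.69, 1.36, 0.84 and 3.66 in fasted LKO. Refed, it stood at 41.8, 5.25, 21.7 and 55 CPM in control and 3.22, 3.72, 4.26 and 6.06 in LKO. Library S49 thus fell within the LKO range, and the other refed control libraries stood above it. The log2 fold changes were −1.95 (SE 0.57, edgeR adjusted p = 0.035) and −2.82 (SE 0.52, edgeR adjusted p = 0.0070). The fasted Derl3 call was held in 1 of 8 fits that left out a library, and limma-voom called Derl3 in neither state (adjusted p = 0.20 and 0.0685). Its paralogs moved less: Derl2 fell by 0.28 in the fasted state (edgeR adjusted p = 0.0481, held in 1 of 8 such fits), and Derl1 differed by 0.20 (edgeR adjusted p = 0.226).

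Herpud1, a membrane protein that works with the HRD1 degradation complex, stood at 569, 886, 932 and 359 CPM in fasted control and 284, 354, 409 and 272 in fasted LKO. S43 lay inside the LKO range and the other control libraries above it (−1.06, SE 0.24, edgeR adjusted p = 0.0084). In the refed state it stood at 537 ± 75.1 and 501 ± 82.2 CPM (SD, n = 4; −0.10, edgeR adjusted p = 0.868). Syvn1, the ubiquitin ligase HRD1, likewise fell in the fasted state, by 0.78 (edgeR adjusted p = 0.0108), and differed by −0.07 in the refed state (edgeR adjusted p = 0.887). Whether counting used strand is not given in the sources used here, and the antisense neighbour Mrpl49, at 37.6% of the level of Syvn1, differed by −0.11 in fasted LKO. Edem1, which extracts misfolded glycoproteins from the folding cycle, fell in both, by 0.66 and by 0.62 (edgeR adjusted p = 0.0025 and 0.0100). Sel1l, the partner of HRD1, and Selenos, a selenoprotein of the same complex, passed in neither state, with differences from −0.40 to −0.06.

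Of the 6 translocation genes, 5 were called lower in fasted LKO and 2 in refed LKO, at medians of −0.44 and −0.33. Over all genes, 6.48% and 1.35% were called lower. Sec61b, a subunit of the Sec61 channel, stood at 44.04, 42.2, 42.99 and 48.9 CPM in fasted control and 25.3, 30.0, 25.7 and 24.8 in fasted LKO, without overlap (−0.75, SE 0.09, edgeR adjusted p = 2.4e-04). In the refed state Sec61b fell by 0.34 (edgeR adjusted p = 0.0457), a call lost in each of the 8 fits that left out a library (highest 0.125). Spcs2, a subunit of signal peptidase, fell by 0.66 and by 0.36 (edgeR adjusted p = 2.8e-04 and 0.0267), the second held in 2 of 8 such fits. Sec61a1, the channel itself, Spcs3 and Sec11c fell in the fasted state by 0.41, 0.46 and 0.42 and did not pass in the refed state (−0.28, −0.33 and −0.43). Refed Spcs3 and Sec11c lay close to the threshold (edgeR adjusted p = 0.0508 and 0.0537), with LKO libraries wholly below control. DESeq2 called both in the refed state (adjusted p = 0.0216 and 0.0212). The fasted groups overlapped for Sec11c, whose call was lost without S42, S43, S44 or S46 (highest edgeR adjusted p = 0.103) and when only the compared groups were fitted. Ssr1, of the translocon-associated complex, passed in neither.

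**Figure D3:**
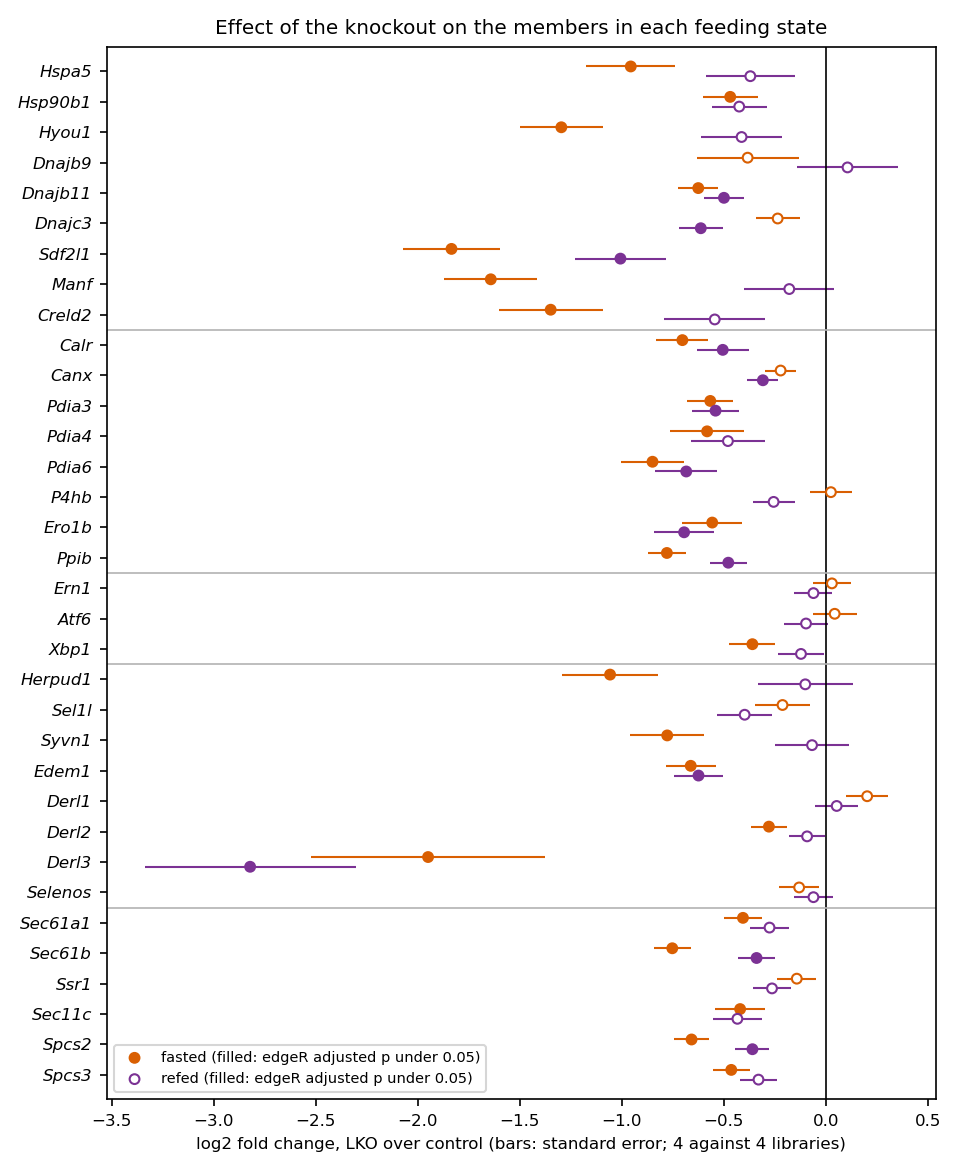
Log2 fold change of LKO over control for each of the 34 genes, fasted (orange) and refed (purple), with bars of 1 standard error; filled points have an edgeR adjusted p under 0.05 and grey lines part the roles. Nearly all points lie left of 0, with the chaperones Hspa5, Hyou1, Manf and Creld2 further left in the fasted state and Derl3 furthest left in both.

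Of the 34 genes, 11 were called lower in LKO in both states, 13 in the fasted state alone, 2 in the refed state alone and 8 in neither. The matching shares over all genes were not computed, so these counts have no background beside them. A call in one state and not in the other does not show that the states differ, so the difference between the 2 genotype effects was tested as an interaction. It passed for 1 of the 34 genes, where 0.311% of all genes passed in that direction and 0.538% in either. That gene was Manf, whose LKO effect was 1.46 log2 units less negative in the refed state (SE 0.32, edgeR adjusted p = 0.0489). The Manf call was kept without S47 or S49 and lost without each of the other 14 libraries (highest edgeR adjusted p = 0.094). At an unadjusted p under 0.05 there were 10 genes, against 16.5% of all genes: Manf, Sec61b (0.41), Hyou1 (0.88), Herpud1 (0.96), Syvn1 (0.71), Sdf2l1 (0.83), Spcs2 (0.30), Dnajc3 (−0.38), Ppib (0.30) and Creld2 (0.80). Their adjusted p-values other than that of Manf ran from 0.127 to 0.262. DESeq2 called Manf and Hyou1, where it called 3.22% of all genes, so these 2 of 34 lie near the share over all genes.

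The refeeding comparisons reuse the same libraries as the genotype comparisons, so they are given by their own values. In control liver 23 of the 34 genes were higher after refeeding and 0 were lower, where 7.79% of all genes were called higher and 7.65% lower. The median log2 fold change was 0.61 against 0.01 over all genes, and for 21 of 34 the refed libraries lay wholly above the fasted ones, against 10.4% of all genes, and for 0 wholly below, against 10.1%. In LKO liver 25 were higher and 0 were lower, where 9.28% of all genes were called higher and 8.78% lower. Here the median was 0.75 against −0.02, and the refed libraries lay wholly above for 27 of 34, against 10.7% of all genes, and wholly below for 0, against 9.94%. By unadjusted p under 0.05, by DESeq2 and by limma-voom, 0 of the 34 were lower after refeeding in either genotype. In both genotypes 20 genes rose, and the share of all genes that did so was not computed. By edgeR, Derl3, P4hb and Sel1l were called in control alone and Creld2, Hspa5, Manf, Selenos and Syvn1 in LKO alone. A call in 1 genotype alone does not show that the genotypes differ. DESeq2 also called Hspa5, Creld2 and Selenos higher in control (adjusted p = 0.025, 0.0377 and 0.0477) and P4hb in LKO (adjusted p = 0.0181).

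In control liver the largest rises were those of Derl3 (2.09, SE 0.50), Sdf2l1 (1.35, SE 0.23) and Pdia6 (1.003, SE 0.15), with edgeR adjusted p of 0.0107, 0.0015 and 9.4e-04. For Derl3 the refed and fasted control libraries overlapped, with S49 below those of the fast, and limma-voom did not call the rise (1.63, adjusted p = 0.0751). All 8 lectin chaperones and folding enzymes rose, by 0.45 to 1.003. Of the 9 chaperones 5 rose in control, where 7.79% of all genes were called higher. Hspa5 (0.63, edgeR adjusted p = 0.0597), Creld2 (0.68, 0.0735) and Manf (0.54, 0.108) did not pass. The refed Hspa5 libraries nevertheless lay wholly above the fasted ones, and the authors' own comparison lists Hspa5, Creld2 and Manf as higher. The calls of Sel1l, Pdia4 and Hyou1 were held in 2, 3 and 4 of the 8 fits that left out a library.

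In LKO liver 8 of the 9 chaperones rose, where 9.28% of all genes were called higher. Sdf2l1 rose by 2.18 (SE 0.24, edgeR adjusted p = 3.7e-05) from 9.76 ± 2.82 to 43.96 ± 4.77 CPM, and Manf by 2.01 (SE 0.23, edgeR adjusted p = 5.3e-05) from 40.4 ± 18.7 to 162 ± 21.8 CPM (SD, n = 4). Hyou1 rose by 1.63, Creld2 by 1.48 and Hspa5 by 1.21 (edgeR adjusted p = 8.3e-05, 9.0e-04 and 0.0013). For these 5 genes the refed LKO libraries lay wholly above the fasted LKO libraries, as for 10.7% of all genes. The refed LKO mean stood above the fasted control mean for 27 of the 34 genes, a count not made over all genes. The Syvn1 call (0.60, edgeR adjusted p = 0.0293) was held in 3 of 8 fits that left out a library.

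Ern1 was the sensor gene that rose on refeeding, by 0.62 in control and 0.53 in LKO (edgeR adjusted p = 9.05e-04 and 0.0012). Its fasted libraries held 25.9 to 33.99 CPM and its refed libraries 35.5 to 47.3, over both genotypes, without overlap. Atf6 and Xbp1 passed in neither genotype (0.04 to 0.30). Among the translocation genes, 5 of 6 rose in each genotype, led by Ssr1 in control (0.91) and by Sec61a1 and Spcs2 in LKO (0.82 each). Over all genes, 7.79% were called higher in control and 9.28% in LKO. Atf6, Derl1 and Dnajb9 passed in none of the 4 comparisons.

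**Figure D4:**
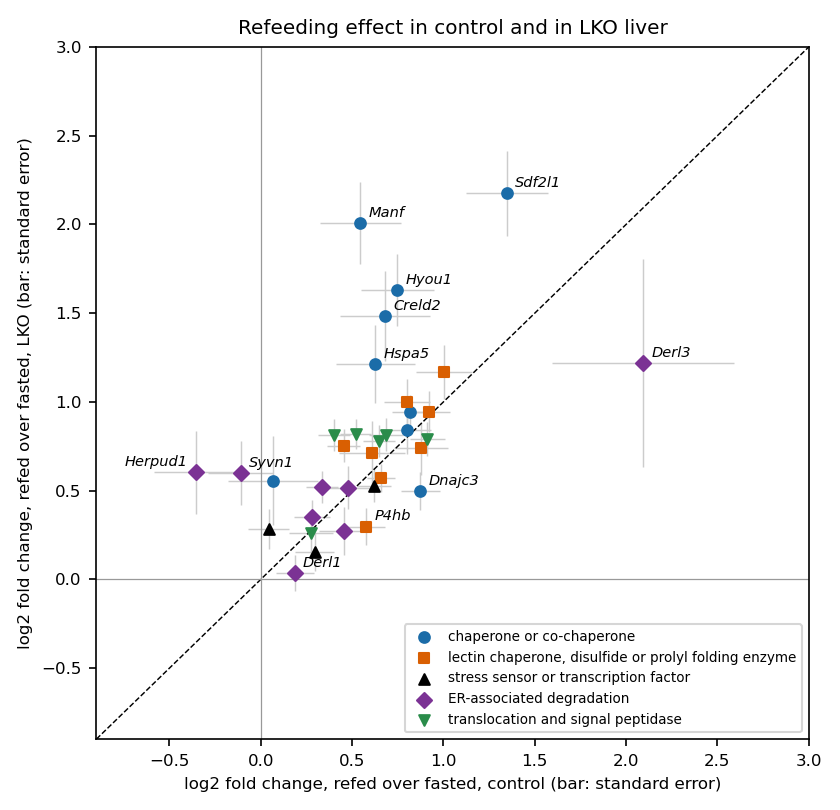
Log2 fold change of refed over fasted in LKO (vertical axis) against control (horizontal axis), 1 point per gene, shaped by role, with bars of 1 standard error; the dashed line marks equal change. Manf, Hyou1, Creld2, Hspa5 and Sdf2l1 lie above the line and Derl3 below it, and the difference passed edgeR's interaction test for Manf alone.

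The authors' deposited tables hold their own comparisons of the same libraries. At the authors' adjusted p-value under 0.05 they list 23 of the 34 genes lower in fasted LKO, all 23 also called by edgeR here, and 18 lower in refed LKO, which include all 13 called here. For refeeding they list 26 genes higher in control and 29 in LKO, which include all 23 and all 25 called here. The share of all genes at the authors' threshold was not computed, so these counts have no background beside them. Whether their larger counts are particular to the 34 genes was not tested.

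Other genes of the pathway were read from 5 lists that hold none of the 34. Over all genes tested, the shares called lower and higher were 6.48% and 5.75% in fasted LKO and 1.35% and 2.28% in refed LKO. On refeeding the shares called higher and lower were 7.79% and 7.65% in control and 9.28% and 8.78% in LKO. Of 31 further ER folding genes, 7 were lower in fasted LKO and 0 higher (median log2 fold change −0.15), among them Cnpy3, a cofactor of the HSP90B1 chaperone (−0.54), Txndc11 (−0.55) and Uggt1, the folding sensor of glycoproteins (−0.37). In the refed state 2 were lower, Uggt1 (−0.53) and Erp44 (−0.27), at a median of −0.14. On refeeding, 7 rose and 1 fell in control, and 9 rose and 1 fell in LKO.

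Of 31 further translocation and N-glycosylation genes, 9 were lower and 1 higher in fasted LKO (median −0.17), and 6 were lower in refed LKO (median −0.15). Krtcap2 (−0.68), Magt1 (−0.64), Ddost (−0.53) and Ostc (−0.52), all subunits of oligosaccharyltransferase, were among those lower in the fasted state. On refeeding 15 rose in control and 16 rose in LKO, where 1 fell. Ostc rose by 1.04 in LKO and Rpn1, a further subunit of that enzyme, by 0.75 in control.

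Of 29 further degradation genes tested, 4 were lower and 3 higher in fasted LKO (median 0.09), with Vcp, the segregase that pulls proteins from the ER, at 0.31. In refed LKO 1 was lower, Selenok (−0.37). On refeeding 4 rose and 1 fell in control, and 1 rose and 3 fell in LKO. Of 26 genes of export from the ER, 4 were lower and 1 higher in fasted LKO. In refed LKO 0 passed by edgeR or limma-voom, 4 stood at an unadjusted p under 0.05 and DESeq2 called 3, all lower. The last 2 rules called 18.4% and 6.38% of all genes in either direction. On refeeding 12 of these export genes rose in control, and 10 rose and 1 fell in LKO. Lman1, the cargo receptor of the early secretory pathway, rose by 0.80 and 0.74.

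A further list held 21 signalling genes of the unfolded protein response and covers the PERK arm. In fasted LKO 1 passed higher (Mbtps2, 0.53) and 2 lower (Wfs1, −0.63, and Bak1, −0.48), at a median of −0.0041. Over all genes, 5.75% were called higher and 6.48% lower. The LKO libraries lay wholly below control for 6 of the 21 and wholly above for 1, against 8.59% and 8.27% of all genes. At an unadjusted p under 0.05, 5 were lower and 1 higher, against 26.7% of all genes in either direction. In refed LKO 0 passed by edgeR or limma-voom, 3 stood at an unadjusted p under 0.05, and DESeq2 called 1 higher and 1 lower, near the shares over all genes. On refeeding 2 rose and 4 fell in control, and 4 rose and 2 fell in LKO. Trib3, a target of ATF4 and CHOP, fell by 2.29 in control and by 2.43 in LKO on refeeding (edgeR adjusted p = 0.0015 and 4.3e-04). Trib3 thus moved opposite to the chaperones on refeeding, with the largest fall of the 21 genes in each genotype. The medians of the list were −0.12 in control and 0.03 in LKO.

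**Figure D5:**
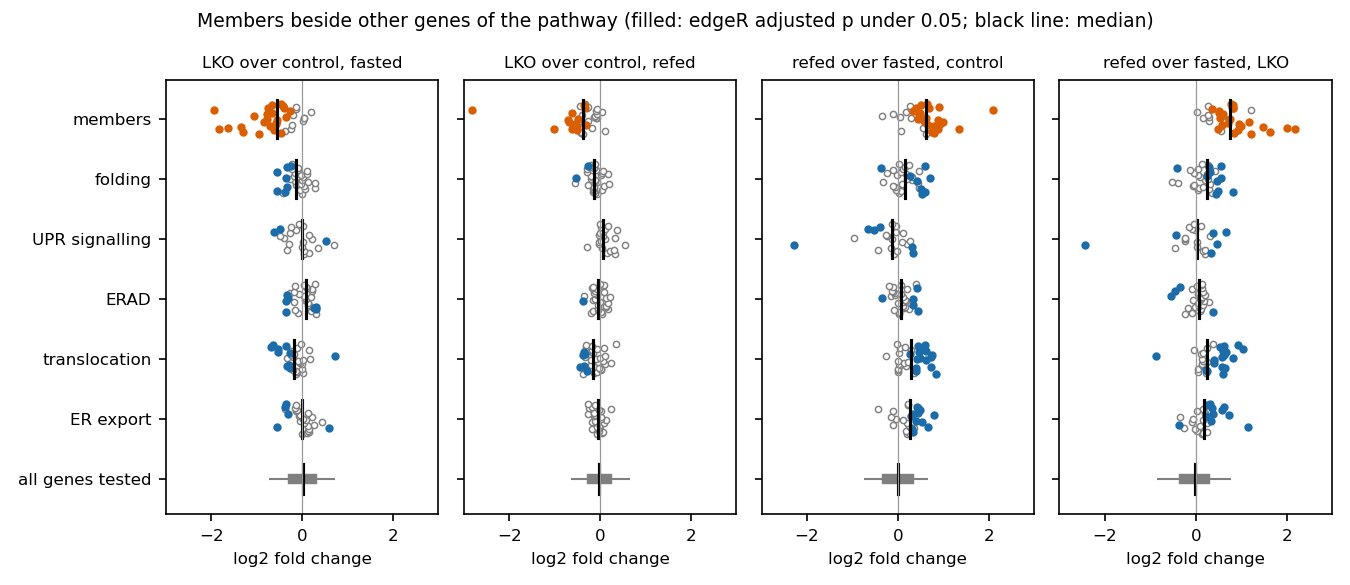
Log2 fold change of each gene (points; filled where the edgeR adjusted p is under 0.05) for the 34 genes (members) and the 5 further lists in the 4 comparisons, with the median as a black line; for all genes tested the grey box spans the quartiles and the grey line percentiles 5 to 95. The 34 genes are displaced to the left in both LKO comparisons and to the right on refeeding, and the UPR signalling list is centred near 0.

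The genes with an element in the promoter window were compared with those without, as a description. Over all genes tested, 6.48% were called lower in fasted LKO and 1.35% in refed LKO. Of the 12 genes with an ERSE or ERSE-II match, 10 were lower in fasted LKO (median −0.74) and 7 in refed LKO (median −0.50). Of the 15 genes with a promoter entry and no match, 9 were lower in fasted LKO (median −0.38) and 6 in refed LKO (median −0.34). The range within each class was wide: Canx, with an ERSE, differed by −0.22, and Sdf2l1, without one, by −1.83 in fasted LKO. Beyond the 34 genes, 17 tested genes carried a match. Of these, Alg12 (−0.96), Krtcap2 (−0.68) and Nucb1 (−0.46) were lower in fasted LKO and 0 were lower in refed LKO. That 0 of 17 lies near the 1.35% of all genes called lower there.

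Markers of other cells were read beside these results. Over all genes, 5.75% were called higher in fasted LKO and 2.28% in refed LKO. Of 10 tested plasma and B cell markers, 5 were higher in LKO in each state, the opposite direction to the 34 genes. Their summed level over 14 listed genes ran from 16.0 to 40.8 CPM in fasted control, 93.1 to 214 in fasted LKO, 19.7 to 33.2 in refed control and 131 to 289 in refed LKO. Igkc, the immunoglobulin kappa constant gene, ran from 4.32 to 15.5 CPM in fasted control and 38.9 to 151 in fasted LKO, and from 5.25 to 10.6 in refed control and 85.0 to 183 in refed LKO. Jchain, which joins immunoglobulin units in plasma cells, ran from 0.926 to 3.15 CPM in fasted control and 7.87 to 27.4 in fasted LKO, and from 0.795 to 2.23 in refed control and 12.3 to 31.6 in refed LKO. For both genes the LKO and control libraries did not overlap in either state. Mzb1 and Tnfrsf17, further plasma cell genes of the list, did not pass the filter on low counts and stood at or below 0.523 CPM in every library. For hepatocyte markers, 7 of 8 had a negative log2 fold change in each state (medians −0.28 and −0.30), the direction of the 34 genes in LKO. Over all genes, 6889 of 14488 were negative in the fasted state and 7558 in the refed state. Of the 8 markers, 1 was called lower in fasted LKO (Ttr) and 0 in refed LKO. These calls lie near the 6.48% and 1.35% of all genes called lower. The hepatocyte markers summed to 82430 to 92150 CPM in fasted control and 68090 to 79740 in fasted LKO. Refed, they summed to 80130 to 102700 CPM in control and 70720 to 85060 in LKO. The part of these shifts in the results was not tested.

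Of the remaining marker lists, 0 of 11 macrophage and 0 of 6 tested T cell and neutrophil markers passed in any of the 4 comparisons. In the list of stellate cells, fibroblasts and endothelium 1 of 9 markers was higher in LKO in each state and 1 rose on refeeding in control. Over all genes, 5.75% were called higher in fasted LKO, 2.28% in refed LKO and 7.79% on refeeding in control. Of 5 cholangiocyte markers 1 fell on refeeding in LKO, where 8.78% of all genes were called lower. Proliferation markers were higher in refed LKO for 4 of 5 tested, where 2.28% of all genes were called higher. Of 6 pancreatic acinar genes 1 was tested, Cela1, which was lower in LKO in both states, and Ctrb1 reached 9.42 CPM in S44 alone against at most 0.170 in the other 15 libraries.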

How the data were processed

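Liver RNA of 16 samples was sequenced, and per the labels' protocols polyadenylated RNA was selected and libraries were made with random hexamers and dUTP. The submitters' processing notes name HISAT2 2.0.5 and build mm39. The counting tool and its use of strand are not given in the sources used here. The authors deposited 4 tables, each comparing a pair of groups, with raw read counts per gene, gene lengths in bases, and the authors' own log2 fold changes and adjusted p-values for each comparison. A further 64 per-library columns were not used. Count columns are named S40 to S55. Their group came from the group heading they share in the tables, and their names carry no replicate number.

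Joining by gene identifier gave 25803 genes, with 0 conflicts between tables in the count of a library. Tables list genes with at least 2 counts in all, and libraries for which a gene was unlisted were given 0 (3148 genes). In R 4.3.3 with edgeR 4.0.16, genes passing filterByExpr (14488) were scaled by TMM (factors 0.941 to 1.07) and modelled with glmQLFit on the 4 groups, with 1 estimate of the spread over all 16 libraries (biological coefficient of variation 0.185). Quasi-likelihood tests gave 4 group comparisons and the interaction, with Benjamini-Hochberg adjustment over all genes tested and a threshold of 0.05. The standard error (SE) is the log2 fold change divided by the square root of F. CPM express each count per M (mega) counts of its library, after TMM scaling of the total. The log2 CPM values given here are the log2 of these CPM, with no prior count added. The scripts were tested on simulated data. Alternatives were DESeq2 size factors, upper quartile scaling, no filter, a mean of at least 5 CPM, DESeq2 1.42.0, limma-voom (limma 3.58.1), fits of only the compared groups, an added absolute log2 fold change of at least 0.5, and each library left out in turn.

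All 34 genes could be named, and of the further lists (folding, UPR signalling, degradation, translocation, export) only genes that passed in a comparison. Marker lists covered hepatocytes, plasma and B cells, macrophages, T cells and neutrophils, stellate cells with fibroblasts and endothelium, cholangiocytes, pancreatic acinar cells and proliferation. The 34 genes and the lists were chosen with earlier results of these data known. Of the 34 genes, 11 overlap another gene in the tables, and for Manf, Syvn1 and Derl2 that neighbour reached at least 10% of their level. Promoters come from RefSeq (GRCm38.p6) and gene coordinates from the deposited tables, and these were not mixed.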

Additional observations from a re-analysis of the deposited data

Results flagged for a closer look

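Within a group of 4 libraries, a highest or lowest library was singled out where its gap to the nearest other was too large a share of the group's range by Dixon's test. This occurred in 13 of the 136 combinations of gene and group, where chance alone gives about 1 in 20. In refed control, S50 stood high for Dnajb9 (103 CPM), Atf6 (62.8 CPM) and Syvn1 (159.6 CPM), S48 stood high for Dnajb11 (203 CPM) and Ppib (115 CPM), and S49 stood low for Pdia4 (203 CPM). In refed LKO, S53 stood high for Xbp1 (284 CPM), and S52 and S54 stood low for Pdia4 (180.1 CPM) and Sec11c (18.7 CPM). In fasted control, S40 stood low for Canx (150.3 CPM) and Ssr1 (49.9 CPM). In fasted LKO, S47 stood high for Canx (154 CPM) and S45 for Derl2 (88.6 CPM).

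The LKO effect on Manf differed between the feeding states by 1.46 on the log2 scale (refed minus fasted, interaction test of edgeR, adjusted p = 0.0489). That value lies close to the threshold. The call was kept without S47 or S49 and lost in every other fit that left out a library.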

How the results depend on the processing

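No called gene among the 34 changed direction under any alternative run. The number of the 34 called in fasted LKO was 18 to 25 under other settings and 17 to 22 with 1 library left out, and 17 of the 24 calls were kept in every such fit. In refed LKO it was 8 when an absolute log2 fold change of at least 0.5 was also asked and up to 16 under DESeq2. With 1 library left out it was 6 to 12, with 6 of 13 calls kept in every such fit. Over all genes, 1.33% to 3.5% were called in those refed fits, against 3.63% with all libraries. On refeeding the number of the 34 called was 18 to 26 and 19 to 27 in control and 23 to 27 and 23 to 25 in LKO. The interaction called 2 genes under DESeq2 and 0 to 2 with 1 library left out. Upper quartile scaling moved the interaction calls over all genes from 45 higher and 33 lower to 43 and 65, and the median of all genes by under 0.1 in each comparison. The causes were not tested. Derl3 was at or below 9.41 CPM in all libraries but 3, so its values carry the most counting error of the 34. No paired analysis was possible because the count columns carry no replicate number, and the fit with a replicate block was not run.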
